A study of Mus musculus with 4 samples.

Results

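Of the genes measured in these mouse brain samples, 6 linked to neurons using acetylcholine as their transmitter are described here: Chat, Slc18a3, Slc5a7, Ache, Lhx8 and Isl1. Not all of them are restricted to such neurons. They were picked by symbol from 19938 genes on the array, and each of the 6 was carried by exactly 1 row of the expression table. Their values on the 4 arrays were known when the set was drawn up, both the difference between the groups and the difference between the 2 arrays titled ketamine. These values are therefore given as a description and carry no test.

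Ketamine, which blocks NMDA receptors for glutamate, was injected intraperitoneally every day at 30 mg/kg, and the control mice received normal saline. All were ICR mice, 1 month old at the start by the methods and treated for 3 months, and the labels name the tissue as prefrontal cortex. RNA of 2 mice per group was measured on Affymetrix Mouse Gene ST arrays, 1 per mouse. The sample titles call 2 arrays ketamine and 2 saline, whereas the source field of the same labels gives the opposite treatments. The groups are named by title, and every difference between the groups would change sign by the source field. Array 2 minus array 1 within a group would keep its value, but the arrays titled ketamine would then be the saline arrays. The labels state female mice and the methods male mice. An exact two-sided permutation test on 4 such arrays cannot go below p = 0.333, and any spread given is that between 2 arrays.

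Acetylcholine is made from choline and acetyl-coenzyme A in the nerve terminal, loaded into vesicles, released, and split in the synaptic cleft, and the freed choline is taken up again. Cholinergic cell bodies lie mainly in the basal forebrain, in the striatum as interneurons, in the medial habenula, and in the tegmentum and motor nuclei of the brainstem. The cortex receives its cholinergic fibres largely from the basal forebrain. Because mRNA stays mostly in the cell body, the transcripts of a dissected block report mainly on cell bodies inside it. In such bulk tissue, fewer cells of a type and less RNA per cell cannot be told apart.

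The genes behind the transmitter itself were found to sit at 3 places in the genome. Chat and Slc18a3 share the cholinergic gene locus on chromosome 14, where RefSeq places Slc18a3 within the span of Chat, with 1059 bases between their starts. Slc5a7 lies on chromosome 17 and Ache on chromosome 5, while the transcription factor genes Lhx8 and Isl1 lie on chromosomes 3 and 13. All 6 were matched to RefSeq by symbol. The 250 bases before the start of the 3 genes of synthesis, vesicle loading and choline uptake are shown, because these 3 form the profile to which other genes are compared. They are given 5′ to 3′ on the strand of the gene, with capitals at any match to the 6 motifs listed after them.
Chat, chr14:32465910-32466159, minus strand: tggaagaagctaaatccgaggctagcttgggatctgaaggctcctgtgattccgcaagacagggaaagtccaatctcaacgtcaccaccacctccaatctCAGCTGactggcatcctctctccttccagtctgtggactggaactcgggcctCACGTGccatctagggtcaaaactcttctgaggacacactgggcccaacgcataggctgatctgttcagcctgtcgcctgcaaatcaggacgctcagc
Slc18a3, chr14:32464851-32465100, minus strand: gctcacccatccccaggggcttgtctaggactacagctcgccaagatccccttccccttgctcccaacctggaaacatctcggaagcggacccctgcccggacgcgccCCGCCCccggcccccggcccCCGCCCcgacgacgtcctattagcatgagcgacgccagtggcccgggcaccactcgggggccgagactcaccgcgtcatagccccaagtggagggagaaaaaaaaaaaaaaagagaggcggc
Slc5a7, chr17:54299035-54299284, minus strand: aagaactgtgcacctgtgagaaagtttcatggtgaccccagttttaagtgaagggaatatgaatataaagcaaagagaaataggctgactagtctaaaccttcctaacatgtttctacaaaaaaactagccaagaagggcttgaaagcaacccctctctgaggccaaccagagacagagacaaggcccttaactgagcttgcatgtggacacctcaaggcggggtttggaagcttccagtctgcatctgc
These windows come from RefSeq on GRCm38.p6. The Slc18a3 window lies inside the transcribed span of Chat, and the array annotation used here does not say which exons each probe set reads.

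The 3 windows differed in base composition. Their GC content was 54.8% for Chat, 66.0% for Slc18a3 and 45.6% for Slc5a7, and they held 8, 21 and 1 CpG dinucleotides in the same order. The motifs searched on both strands were TAATTA (a homeodomain core), GGGCGG (a GC box), CAGCTG and CACGTG (E-boxes), TGACGTCA (a cyclic AMP response element) and GGACAGC (part of the element bound by the silencer REST). Chat held 1 CAGCTG and 1 CACGTG, which occur in 13.0% and 6.02% of 32817 windows of this length. Slc18a3 held 2 GGGCGG, read as CCGCCC on its own strand, a motif of 32.7% of the windows. Slc5a7 held none of the 6. Among the other genes Ache held 4 GGGCGG, of which some overlap, and 1 CACGTG, Isl1 held 1 CAGCTG, and Lhx8 held 1 GGACAGC, which occurs in 5.28% of the windows. TAATTA and TGACGTCA, in 4.85% and 1.55% of the windows, were in none of the windows of the 6 genes. A match of letters is a description of the window and does not show that a factor binds there.

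The largest contrast among the 6 genes was between the 2 arrays titled ketamine. Slc5a7 encodes the high-affinity choline transporter, which returns choline to the terminal. Its log2 value was 6.86 on titled ketamine array 2 and 4.88 on titled ketamine array 1, against 6.03 on titled saline array 2 and 6.16 on titled saline array 1. One array titled ketamine thus lay above both arrays titled saline and the other below both. The difference of array 2 minus array 1 was 1.98 within the group titled ketamine, a 3.94-fold ratio, and -0.13 within the group titled saline.

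Slc18a3 encodes the vesicular acetylcholine transporter, which fills synaptic vesicles. It read 6.66 on titled ketamine array 2 and 5.32 on titled ketamine array 1, against 6.39 and 6.44 on titled saline arrays 2 and 1. The order of the arrays was again high, low and intermediate. Array 2 exceeded array 1 by 1.34 among the arrays titled ketamine, a 2.53-fold ratio, and the same subtraction gave -0.04 among those titled saline.

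Chat, the gene of choline acetyltransferase that makes acetylcholine, shares its locus with Slc18a3. Its measured difference between the arrays titled ketamine was smaller, at a lower signal. Its values were 5.01 on titled ketamine array 2 and 4.63 on titled ketamine array 1, against 5.31 and 5.13 on titled saline arrays 2 and 1. Both arrays titled ketamine were lower than both titled saline. Array 2 minus array 1 was 0.37 for the arrays titled ketamine and 0.19 for those titled saline, of the same sign in both groups.

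Ache encodes acetylcholinesterase, which splits the transmitter and is made by many cells that are not cholinergic. It read 7.71 and 7.22 on titled ketamine arrays 2 and 1, against 7.54 and 7.43 on titled saline arrays 2 and 1. Ache kept the same order as Slc5a7 and Slc18a3, at a smaller size, with 0.48 between the arrays titled ketamine and 0.12 between those titled saline.

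The 2 transcription factor genes showed a different pattern, with little difference within a group. Lhx8 encodes a LIM homeobox factor needed for forebrain cholinergic neurons. It read 4.58 and 4.51 on titled ketamine arrays 2 and 1, against 5.26 and 5.21 on titled saline arrays 2 and 1. Isl1, a LIM homeobox factor of motor neurons, striatal cholinergic interneurons and several other neuron types, read 4.33 and 4.44 on titled ketamine arrays 2 and 1, against 5.83 and 5.88 on titled saline arrays 2 and 1. The arrays of a group lay close together for both genes and the groups did not overlap. Olfactory receptor genes served as a guide to the signal of genes that are mostly silent in brain, and the 95th percentiles of their 1035 rows were 4.46 and 4.56 on titled ketamine arrays 2 and 1, and 4.43 and 4.20 on titled saline arrays 2 and 1. Isl1 lay below this level on both arrays titled ketamine and Lhx8 on array 1, and how far they lay below the saline arrays is not resolved there. The other 4 genes were above it on every array, and all 6 were above it on the arrays titled saline. Chat lay near it on titled ketamine array 1, at 4.63 against 4.56, so that the size of its drop there is not well resolved.

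**Figure D1:**
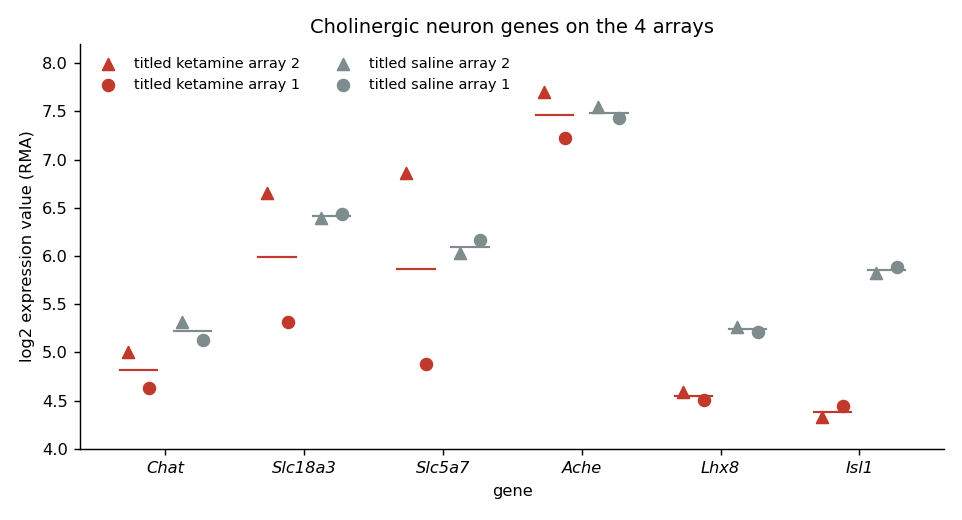
Log2 expression value (y axis) of the 6 cholinergic neuron genes (x axis) on each array; triangles are array 2, circles array 1, red titled ketamine, grey titled saline, and lines the means of 2 arrays. Slc5a7 lies at 6.86 and 4.88 on the arrays titled ketamine, either side of the arrays titled saline, while Isl1 lies at 4.33 and 4.44, below both arrays titled saline.

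Between the arrays titled ketamine, 2 of the 6 genes were at least 2-fold higher on array 2 and 0 were lower. Over all 21789 rows tested, 0.142% were at least 2-fold higher on array 2 and 0.0367% lower. Since this contrast chose the genes, the count is given beside the background and nothing is read from it. In order of this difference over all rows, Slc5a7 stood at place 3 and Slc18a3 at place 11. Between the arrays titled saline 0 of the 6 genes reached 2-fold in either direction, against 0.0872% of all rows (0.0275% higher and 0.0597% lower on array 2), and the largest absolute difference among the 6 was 0.19. The median of array 2 minus array 1 was 0.43 over the 6 genes and -0.0021 over all rows within the group titled ketamine. The SD of this difference over all rows was 0.203 for the arrays titled ketamine and 0.223 for those titled saline. The contrast sets 1 array against 1, so that it has no replicate, and whether it lies between the mice, in the dissection or in the hybridisation was not tested.

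**Figure D2:**
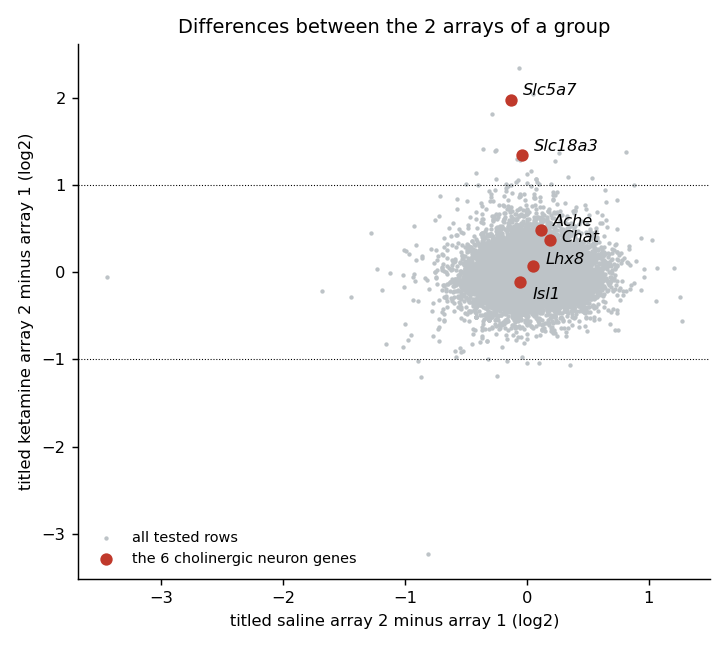
Array 2 minus array 1 on the log2 scale within the group titled ketamine (y axis) and within the group titled saline (x axis), for all tested rows (grey) and for the 6 genes (red); dotted lines mark 2-fold. Slc5a7 at 1.98 and Slc18a3 at 1.34 lie above the upper line, and no gene of the 6 is beyond 0.19 on the x axis.

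Set against the saline group as a whole, all 6 group means were lower on the arrays titled ketamine. Slc5a7 averaged 5.87 ± 1.40 on the arrays titled ketamine and 6.10 ± 0.0918 on those titled saline (SD, n = 2 each), a log2 difference of -0.23. Its difference was 0.76 without titled ketamine array 1 and -1.22 without titled ketamine array 2, so that the direction depends on the array kept. Slc18a3 averaged 5.99 ± 0.947 and 6.42 ± 0.0307 on the arrays titled ketamine and titled saline (SD, n = 2 each), a log2 difference of -0.43, which became 0.24 without titled ketamine array 1 and -1.10 without titled ketamine array 2. For these 2 genes the spread within the ketamine group exceeded the difference between the groups.

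Chat averaged 4.82 ± 0.263 on the arrays titled ketamine and 5.22 ± 0.131 on those titled saline (SD, n = 2 each), a log2 difference of -0.40, with -0.21 left without titled ketamine array 1 and -0.58 without titled ketamine array 2. Ache averaged 7.46 ± 0.342 on the arrays titled ketamine and 7.48 ± 0.0816 on those titled saline (SD, n = 2 each). The log2 difference of Ache, -0.02, was smaller than the spread within either group and changed sign with the array left out. It was 0.22 without titled ketamine array 1, -0.26 without titled ketamine array 2 and 0.04 without titled saline array 2.

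The 2 transcription factors were lower by more than the spread within the groups. Lhx8 averaged 4.55 ± 0.0521 on the arrays titled ketamine and 5.24 ± 0.0364 on those titled saline (SD, n = 2 each), a log2 difference of -0.69, and Isl1 averaged 4.38 ± 0.0795 and 5.85 ± 0.0390 on the same arrays (SD, n = 2 each), a log2 difference of -1.47. With any 1 array left out Lhx8 remained between -0.73 and -0.65 and Isl1 between -1.53 and -1.41. The difference of Isl1 may be larger than measured, since both arrays titled ketamine read below the olfactory receptor level.

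Both arrays titled ketamine were below both titled saline for 3 of the 6 genes (Chat, Lhx8 and Isl1), as for 21.5% of all rows, and above both for 0, against 48.4% of all rows. Array 2 was above and array 1 below both arrays titled saline for the other 3 (Slc18a3, Slc5a7 and Ache), an order found in 2.73% of all rows. Titled ketamine array 1 was below both arrays titled saline for 6 of 6 genes, against 27.8% of all rows. As above, these counts describe the genes and are not support, because the values were used to choose them. The median log2 difference of the groups was -0.41 over the 6 genes and 0.13 over all rows, so that the direction of a small difference depends on the scaling between arrays. With each array centred on its median, the log2 differences were -0.37 for Slc5a7, -0.56 for Slc18a3, -0.53 for Chat, -0.16 for Ache, -0.83 for Lhx8 and -1.61 for Isl1, all in the direction of the deposited values.

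The regional markers moved on the same arrays. Over all rows 33.2% passed limma at an adjusted p of 0.05, with 23.4% higher and 9.71% lower. Of 13 measured cerebellar markers 13 were higher on the arrays titled ketamine in limma, with a median level of 9.47 and 9.60 on titled ketamine arrays 2 and 1 and of 5.57 and 6.40 on titled saline arrays 2 and 1. Of 12 markers of striatal projection neurons 12 were lower, with median levels of 6.23 and 5.97 on titled ketamine arrays 2 and 1 and of 8.22 and 8.27 on titled saline arrays 2 and 1. Of 9 markers of the upper layers of the labelled cortex, 6 were lower, between -2.71 for Mef2c and -0.55 for Pou3f2, while Cux1 was higher at 0.49, and Pou3f3 at -0.32 and Mdga1 at -0.06 did not pass. All 9 read above the olfactory receptor level on every array. The tissue label is the same on all arrays, whereas these regional markers differed with the title. Regional content and title therefore cannot be told apart for any of the 6 genes, nor for the listed genes compared between the groups below. The part of regional tissue in the differences of Lhx8 and Isl1 was not tested.

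The same lists were set side by side for the 2 arrays titled ketamine. The median of array 2 minus array 1 was -0.016 for striatal projection neurons, -0.23 for the cerebellum, 0.14 for the upper cortical layers, 0.14 for the hindbrain position genes and 0.16 for the medial habenula, where cholinergic cell bodies also lie. It was 0.63 for 9 markers of monoamine neurons, 8 of them higher on array 2, and 0.38 for 9 oligodendrocyte markers, all 9 higher on array 2. Median levels of the monoamine list were 5.97 on titled ketamine array 2 and 5.20 on titled ketamine array 1, and those of the oligodendrocyte list were 9.13 and 8.85. Those of the hindbrain list were 4.88 and 4.50, and 4.29 and 4.04 on titled saline arrays 2 and 1. All but the level on titled ketamine array 2 were below the olfactory receptor level, so the hindbrain differences are not well resolved in size. Within the group titled saline the same subtraction gave -0.066 for the monoamine list and 0.054 for the oligodendrocyte list, but -0.25 for the cerebellum and 0.31 for the hindbrain position genes, at least as much as between the arrays titled ketamine. It was -0.013 for striatal projection neurons, -0.059 for the upper cortical layers and 0.12 for the medial habenula. Single cerebellar markers differed far more between the arrays titled saline than their median. Gabra6 read 3.28 on titled saline array 2, below the olfactory receptor level, and 6.73 on array 1. Car8 and Cbln3 differed by -1.44 and -1.23, whereas Grm4 was at 0.05 and Barhl2 at 0. The part of the tissues and cell types of these lists in the difference of Slc5a7 and Slc18a3 was not tested.

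Other genes of cholinergic neurons were then examined for the same split. Of 15 measured genes in this list, 2 were at least 2-fold higher on titled ketamine array 2 than on array 1, and the median difference of the 15 was 0.36. Slc10a4, a transporter-like protein of cholinergic and monoaminergic vesicles, read 5.43 on titled ketamine array 2 and 4.04 on titled ketamine array 1, against 5.30 and 5.56 on titled saline arrays 2 and 1. Chodl, which encodes chondrolectin, known from motor neurons, read 5.20 and 3.93 on titled ketamine arrays 2 and 1, against 4.85 and 4.62 on titled saline arrays 2 and 1. For both genes titled ketamine array 1 was the lowest of the 4 arrays and lay below the olfactory receptor level, so that the differences of 1.39 and 1.27 are not resolved in size. Prph, the intermediate filament peripherin of motor and sensory neurons, differed by 0.89 between the arrays titled ketamine but read higher on both of them, at 6.46 and 5.57, than on titled saline arrays 2 and 1, at 5.39 and 5.18. Chrm2, an inhibitory muscarinic receptor found on cholinergic terminals, differed by 0.69 and Ecel1, a membrane peptidase, by 0.61.

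In the comparison of the groups, limma passed 4 of these 15 genes as higher and 4 as lower at an adjusted p of 0.05. The shares over all rows were 23.4% higher and 9.71% lower. Esrrb, an orphan nuclear receptor, was higher by 1.32 (standard error 0.127, adjusted p = 0.000437 from limma), and Nefh, the heavy neurofilament subunit, by 0.76 (adjusted p = 0.00681 from limma). Tac2, a tachykinin precursor of the medial habenula and other sites, had a log2 difference of -2.16 (adjusted p = 0.000109 from limma), with both arrays titled ketamine below the olfactory receptor level, and Ecel1 was lower at -0.98 (adjusted p = 0.00882 from limma). Slc10a4 did not pass in limma, at -0.69 with an adjusted p of 0.212, nor did Chodl, at -0.17 with an adjusted p of 0.745. With centred arrays, and likewise after quantile normalization, 3 of the 15 were higher and 5 lower.

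Further genes that handle choline and acetylcholine went both ways. In limma 7 of the 17 measured were higher and 2 lower, against 23.4% and 9.71% of all rows, with 8 that missed the threshold. The counts were 5 and 2 with the arrays centred on their medians, and 5 and 4 after quantile normalization. Chpt1, which makes phosphatidylcholine, was higher by 1.21 (adjusted p = 0.000521), Chka, a choline kinase, by 0.69 (adjusted p = 0.00949), and Colq, the collagen tail that anchors acetylcholinesterase at synapses, by 0.62 (adjusted p = 0.0142), all from limma. Slc44a5, a choline transporter-like protein, was lower at -1.11 (adjusted p = 0.000898 from limma). None of the 17 differed 2-fold between the arrays titled ketamine, where their differences ran between -0.31 and 0.38 with a median of 0.06. The butyrylcholinesterase gene Bche, at 0.38, had the largest, with values of 5.81 and 5.43 on titled ketamine arrays 2 and 1, and of 4.97 and 5.40 on titled saline arrays 2 and 1.

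A further list had 16 measured genes for LIM homeobox, LIM-only, LIM-binding and related factors. Whether they act with Lhx8 or Isl1 in this tissue was not tested. In limma 6 of the 16 were lower and 2 higher, against 9.71% and 23.4% of all rows, with the other 8 short of the threshold. The counts were 9 lower and 0 higher both with centred arrays and after quantile normalization. Lmo3, a LIM-only cofactor, read 6.43 and 5.93 on titled ketamine arrays 2 and 1, against 9.90 and 9.90 on titled saline arrays 2 and 1, a log2 difference of -3.72. Ldb2, which encodes a LIM-domain-binding cofactor, had a log2 difference of -2.56, Lhx2, a LIM homeobox factor of the developing cortex, one of -2.21, and Lmo4, another LIM-only cofactor, one of -2.11. All 4 genes were lower on both arrays titled ketamine and passed in limma. Between the arrays titled ketamine Lhx2 went opposite to Slc5a7, with 4.66 on array 2 and 5.63 on array 1. Tbx20, a T-box factor of cranial motor neurons, was higher by 0.48 (adjusted p = 0.0246 from limma), a call lost with centred arrays, where it was at 0.34, and after quantile normalization, where it was at 0.18. Its 4 values, 4.13, 3.87, 3.53 and 3.53, were all below the olfactory receptor level.

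Among 20 receptor genes for acetylcholine limma passed 9 as lower and 3 as higher, against 9.71% and 23.4% of all rows. The counts were 9 and 2 for centred arrays and 9 and 1 after quantile normalization. Chrm3, Chrm1 and Chrm4, muscarinic receptors of forebrain neurons, had log2 differences of -2.95, -1.90 and -1.88. Chrna5, an accessory nicotinic subunit, had one of -2.36, with both arrays titled ketamine below the olfactory receptor level. Striatal and upper cortical markers were also mostly lower on these arrays, and their part in the receptor differences was not tested. No receptor of this list differed 2-fold between the arrays titled ketamine, where the differences ran between -0.27 and 0.49.

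Over the 4 lists, 37 of 68 genes passed in limma, 16 higher (23.5%, against 23.4% of all rows) and 21 lower (30.9%, against 9.71% of all rows). The split was 10 higher and 25 lower with centred arrays and 9 higher and 27 lower after quantile normalization. The calls were lost with 1 array titled ketamine against 2. When titled ketamine array 1 was left out limma passed 0 of all rows, with 5974 at an unadjusted p under 0.05, and when array 2 was left out it passed 0, with 6461. The groups did not overlap for any of the 37 genes, so that leaving out 1 array could not change the sign of a log2 difference. With any 1 array left out 36 of them stayed within 1.5 times, with Nefm between 0.43 and 0.92 as the exception. The 37 genes were called on these same values, so that this is a description and not support. Without titled saline array 2, 21 of the 68 genes passed, and without titled saline array 1, 25.

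**Figure D3:**
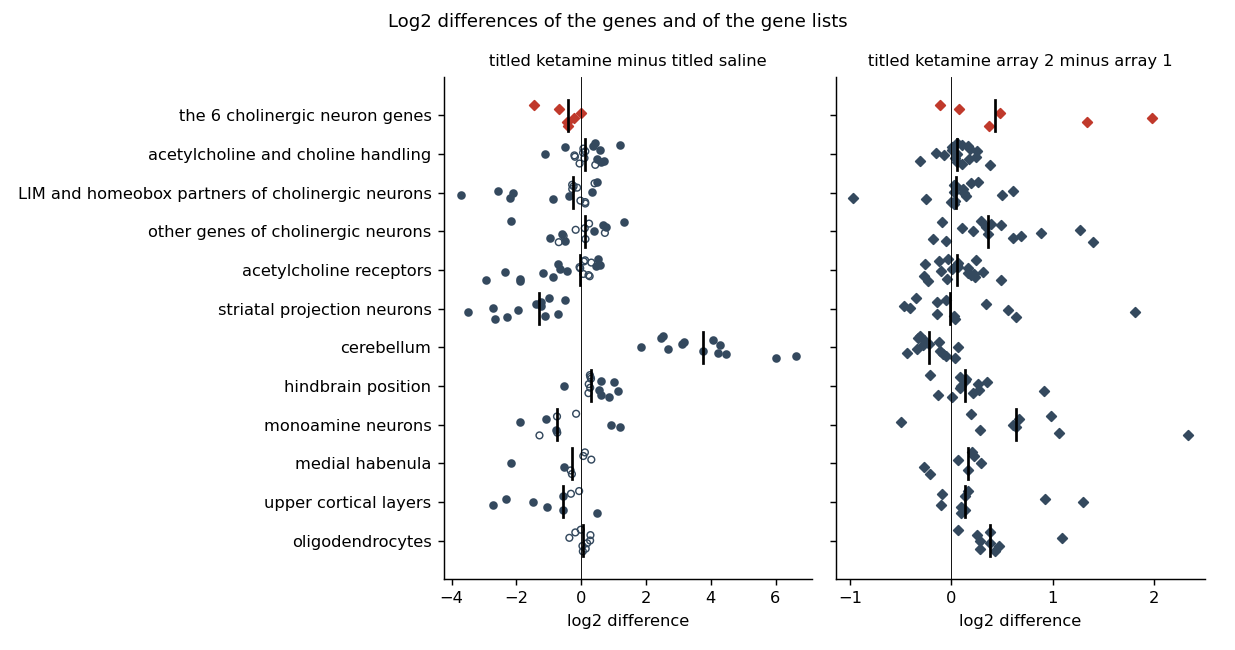
Log2 differences (x axes) of the 6 genes (red diamonds, not tested) and of the measured genes of 11 lists (y axis), between the groups on the left and between the arrays titled ketamine on the right. Bars are medians, filled circles on the left passed limma at an adjusted p of 0.05 and open ones did not, and the diamonds on the right carry no test; the 13 cerebellar markers lie to the right of 0 between the groups, while between the arrays titled ketamine the monoamine list has the largest median of the 11 lists, at 0.63.

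The profiles of the 6 genes over the arrays were compared after subtracting each gene's own mean. The distance between 2 profiles was the root mean square of their differences over the 4 arrays, in log2 units. Slc18a3 lay nearer to Slc5a7, at 0.25, than to its locus neighbour Chat, at 0.35. Chat lay nearest to Lhx8, at 0.19, with Ache also at 0.19. Isl1 was the most distant, at 0.96 from Slc5a7 and 0.40 from Lhx8. These distances come from 4 arrays and describe the values already given.

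The mean profile of Chat, Slc18a3 and Slc5a7 was 0.44 on titled ketamine array 2 and -0.79 on titled ketamine array 1, and 0.18 and 0.17 on titled saline arrays 2 and 1. The 10 genes nearest to it were Il33, Car12, Chodl, Opalin, Cmbl, Ralyl, Dgkk, Cyp4x1, Susd2 and Slc6a11, at distances between 0.11 and 0.19. Il33, a cytokine of the interleukin family made by glia in the brain, read 7.79 and 6.84 on titled ketamine arrays 2 and 1, against 7.76 and 7.69 on titled saline arrays 2 and 1. Opalin, a membrane protein of oligodendrocytes, read 6.63 and 5.54 on titled ketamine arrays 2 and 1, against 6.62 and 6.28 on titled saline arrays 2 and 1. Slc6a11, a GABA transporter of astrocytes, read 9.94 and 9.08 on titled ketamine arrays 2 and 1, against 10.17 and 10.11 on titled saline arrays 2 and 1. In each of these 3 genes titled ketamine array 1 was the lowest of the arrays. Only Chodl of the 10 belongs to a list of cholinergic neuron genes.

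**Figure D4:**
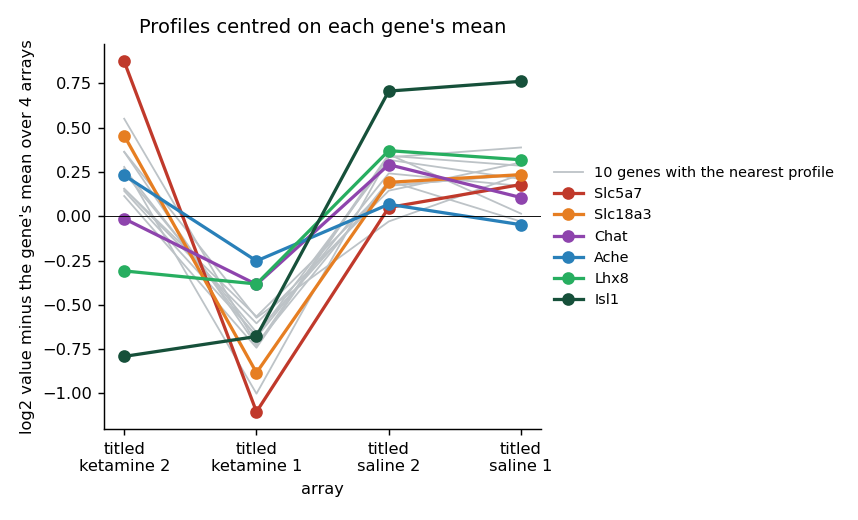
Log2 value minus the gene's own mean over the 4 arrays (y axis) on each array (x axis), for the 6 genes (coloured) and the 10 genes with the nearest profile to the mean of Chat, Slc18a3 and Slc5a7 (grey). Slc5a7 and Slc18a3 drop on titled ketamine array 1 only, whereas Lhx8 and Isl1 are low on both arrays titled ketamine.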

How the data were processed

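Deposited values were on the log2 scale, from RMA at core level in the Affymetrix Expression Console. The sources used here name neither its version nor a genome build. RMA corrects background, gives the probes of arrays processed together a common distribution and summarises each transcript cluster, which compresses low values. Of 35556 rows, 21789 carried 1 gene symbol in the platform annotation and were tested, 1621 carried several and 12146 none. Of the tested rows 21698 were matched to RefSeq by gene number. The medians of the tested rows were 6.04 on both arrays titled ketamine, and 5.91 and 5.90 on titled saline arrays 2 and 1. As deposited, these medians thus differed between the groups.

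Groups followed the titles, and a p-value reflects no more than the scatter among these arrays. The difference of each row was tested by the moderated fit of limma 3.58.1 under R 4.3.3, with Benjamini-Hochberg adjustment over all tested rows, after the procedure was tested on simulated data. Genes with several rows were represented by the row with the highest mean. Differences between single arrays were called at 2-fold, without a test. The 6 genes and all lists were chosen with earlier results of these data known. The genes named were the 6, the 10 nearest profiles and up to 4 per list with the largest difference in either contrast. The 8 largest differences each way between the arrays titled ketamine were also named. For these 8 the higher value of the 2 arrays had to reach 5.97, the median of all tested values. For the nearest profiles the highest value had to reach 4.56, the highest of the olfactory receptor levels. Predicted genes were passed over in the profiles and among the 8 each way.

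Alternatives were quantile normalization, centring of the arrays, a filter on dim rows (mean under 4.41, the average 95th percentile of olfactory receptor rows, which left 15910 rows), trend and robust moderation, the replicate number as a block, a 1.5-fold limit and each array left out. Motifs were chosen after the expression values were seen. The number of arrays limits the precision.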

Additional observations from a re-analysis of the deposited data

How the results depend on the processing

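Of 112 values recomputed under another setting, 79 stayed within 1.5 times of a count, or within the spread of a difference, and 33 did not. Within the spread does not mean one direction: 4 of the 79 were differences that changed sign, at 0.76 for Slc5a7, 0.24 for Slc18a3 and 0.22 for Ache without titled ketamine array 1, and 0.04 for Ache without titled saline array 2. After quantile normalization limma passed 2923 rows as higher and 4049 as lower, and after centring 3210 and 3213, against 5109 and 2115 as deposited. These settings shift the median row by -0.17 and -0.14. The listed genes that were higher numbered 9 and 10 under the same 2 settings. The log2 difference of Chat was -0.65 after quantile normalization, that of Lhx8 -0.95 and that of Isl1 -1.72. With centred arrays Lhx8 was at -0.83 and Isl1 at -1.61. At 1.5-fold, 309 rows differed between the arrays titled ketamine, against 39 at 2-fold. With each array left out in turn, 0 to 4574 rows passed limma (0 to 3171 higher and 0 to 1403 lower), and 0 to 25 listed genes (0 to 8 higher and 0 to 17 lower). The lone array of a group was then assumed to vary like the others. The arrays share only a replicate number: with it as a block 8250 rows passed, against 7224, and 42 listed genes, against 37, while the correlation of array 2 minus array 1 between the groups was 0.03 across rows. In this balanced layout the block cannot change a difference between the groups, so that those of the 6 genes stayed the same by construction. These 6 values are among the 79.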

Other observations

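The rows that differed most between the arrays titled ketamine held several neuronal genes beside Slc5a7 and Slc18a3. Tph2, the serotonin-synthesizing hydroxylase of raphe neurons, read 6.002 on titled ketamine array 2 and 3.67 on titled ketamine array 1, against 6.09 and 6.15 on titled saline arrays 2 and 1. Slc6a4, the serotonin transporter, read 6.26 and 5.20 on titled ketamine arrays 2 and 1, against 6.51 and 6.43 on titled saline arrays 2 and 1. For both serotonergic genes titled ketamine array 1 was the lowest array, and Tph2 lay below the olfactory receptor level there. Necab1, a neuronal calcium-binding protein, Gabra5, a GABA receptor subunit, Tac1, the substance P precursor, Minar2 and Lamp5 were higher on array 2 by 2.04, 1.94, 1.82, 1.36 and 1.30. For these 5 genes the saline arrays were both above the ketamine arrays, unlike for Slc5a7. Without titled ketamine array 1 the log2 difference of Lamp5 between the groups was -0.83, and without titled ketamine array 2 it was -2.13.

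In the opposite direction, Sec61b, Eomes, Snora75, Invs, Dap, Nr4a3, Snord14e and Aass were lower on titled ketamine array 2 than on array 1, by log2 differences between -1.20 and -0.87. Eomes, a T-box factor of unipolar brush cells in the cerebellum, read 5.77 and 6.97 on titled ketamine arrays 2 and 1, against 3.80 and 4.04 on titled saline arrays 2 and 1. Sec61b and Invs, at -0.87 and -0.89, differed about as much between the arrays titled saline as between those titled ketamine, at -1.20 and -1.01.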
